A study of Homo sapiens with 6 samples.

Results

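Keratins are the intermediate filament proteins of epithelial cells, and 10 of them were followed here in paclitaxel-resistant MDA-MB-231 cells: the luminal keratins KRT8, KRT18, KRT7 and KRT19, the basal keratins KRT5, KRT14 and KRT17, the hair keratins KRT81 and KRT86, and KRT80. They are 10 of the 61016 annotated genes with a transcript on file. The 10 were chosen by their counts normalised to library size (CPM) in the same 2 groups compared below, so for these genes the levels and folds are a description and carry no test. MDA-MB-231 is a human triple-negative breast cancer line that was made resistant to paclitaxel (PTX), a taxane that stabilises microtubules. Cells were stained by the ALDEFLUOR assay, which reports aldehyde dehydrogenase (ALDH) activity, and sorted by flow cytometry. The ALDH+ cells are called BCSC and the ALDH− cells non-BCSC, with 3 libraries of each. All 6 libraries come from that 1 cell line, all carry the PTX resistance, and the label for cell type reads breast cancer stem cells in all 6, so the groups were taken from the sample titles. Nothing states whether replicates came from separate cultures, so the spread between them may be technical.

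A keratin filament is built from obligate pairs of an acidic type I and a basic type II chain. KRT8 (type II) and KRT18 (type I) form the filament of simple epithelia such as the luminal cells of the breast, with KRT7 and KRT19 as further luminal members, while KRT5 (type II) and KRT14 (type I) form that of basal and myoepithelial cells, where KRT17 is also made. KRT81 and KRT86 are type II keratins of the hair shaft, and KRT80 is a type II keratin found in many epithelia.

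Among the type II keratins, KRT8 and KRT80 ran in opposite directions. KRT8 and its partner KRT18 were lower in BCSC, 6.59 ± 1.82 against 58.6 ± 10.01 CPM for KRT8 and 1.85 ± 0.802 against 10.99 ± 1.28 CPM for KRT18 (mean ± SD, n = 3). KRT80 was higher in BCSC, 179 ± 40.5 against 56.7 ± 9.73 CPM. KRT81 was abundant in both groups and its values overlapped. The basal keratins and KRT19 had at most 36 counts in any library.

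Sequence is given for the place where the identity of the KRT80 RNA rests on a few bases, read from the GENCODE transcripts on GRCh37. KRT80 has 2 coding isoforms that part in exon 9. KRT80-201 starts that exon 35 bases earlier (chr12:52565307-52565341, minus strand). The stretch, in capitals, holds 32 coding bases and the stop codon. KRT80-202 skips it and joins the same 30 bases to those in capitals on its line, which are coding in KRT80-202 and follow the stop codon in KRT80-201.
KRT80-201: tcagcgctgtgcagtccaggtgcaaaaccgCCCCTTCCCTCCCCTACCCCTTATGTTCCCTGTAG
KRT80-202: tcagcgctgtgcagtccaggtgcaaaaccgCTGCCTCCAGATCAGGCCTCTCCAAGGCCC

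The BCSC libraries held 15925943 to 21215352 counts and the non-BCSC libraries 9898588 to 12263667. A count of 0 allows up to 3 counts, or 0.141 to 0.303 CPM by library, which covers counting error only. Of 20442 genes tested, 8.85% were called higher in BCSC and 11.3% lower (edgeR quasi-likelihood test with Benjamini-Hochberg adjustment, adjusted p under 0.05 and a fold beyond 2), and in 52.1% the groups did not overlap. Reads over olfactory receptor genes, which a breast line should not make, came to 1.03, 1.10 and 3.19 counts per kb in BCSC against 8.33, 10.1 and 15.3 in non-BCSC. VIM, the filament gene that marks MDA-MB-231, was high in all 6 libraries at 2320 to 3735 CPM. Of 16 markers of leukocytes, endothelium, fibroblasts, keratinocytes and hair, 4 of the 9 tested were lower in BCSC and 0 higher (also 0 higher at an unadjusted p under 0.05 and by DESeq2). The 16 summed to 27.7 to 48.1 CPM in BCSC against 118 to 135 in non-BCSC, with IVL and LORICRIN at 0 throughout. The part of this background and of these markers in the keratin results was not tested. Of the enzymes the assay can report, ALDH1A1 was lower in BCSC, at 0 to 0.363 against 2.47 to 3.14 CPM (adjusted p = 0.0446). It had 0, 5 and 6 counts in BCSC against 38, 28 and 32 in non-BCSC. ALDH1A1 thus passed the filter on low counts through non-BCSC alone, and the part of the background in it was not tested. ALDH1A3 was at 25.6 to 33.4 against 12.1 to 23.5 CPM (adjusted p = 0.0577).

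Among the 10 keratins, 6 passed the filter on low counts (KRT8, KRT18, KRT7, KRT80, KRT81 and KRT86) and 4 did not (KRT19, KRT5, KRT14 and KRT17). By the call used for all genes, 1 was higher and 2 were lower, beside 8.85% and 11.3% of all genes tested. In 3 of the 6 the groups did not overlap, beside 52.1%. These counts restate the choice of the genes, and nothing is read from them.

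**Figure D1:**
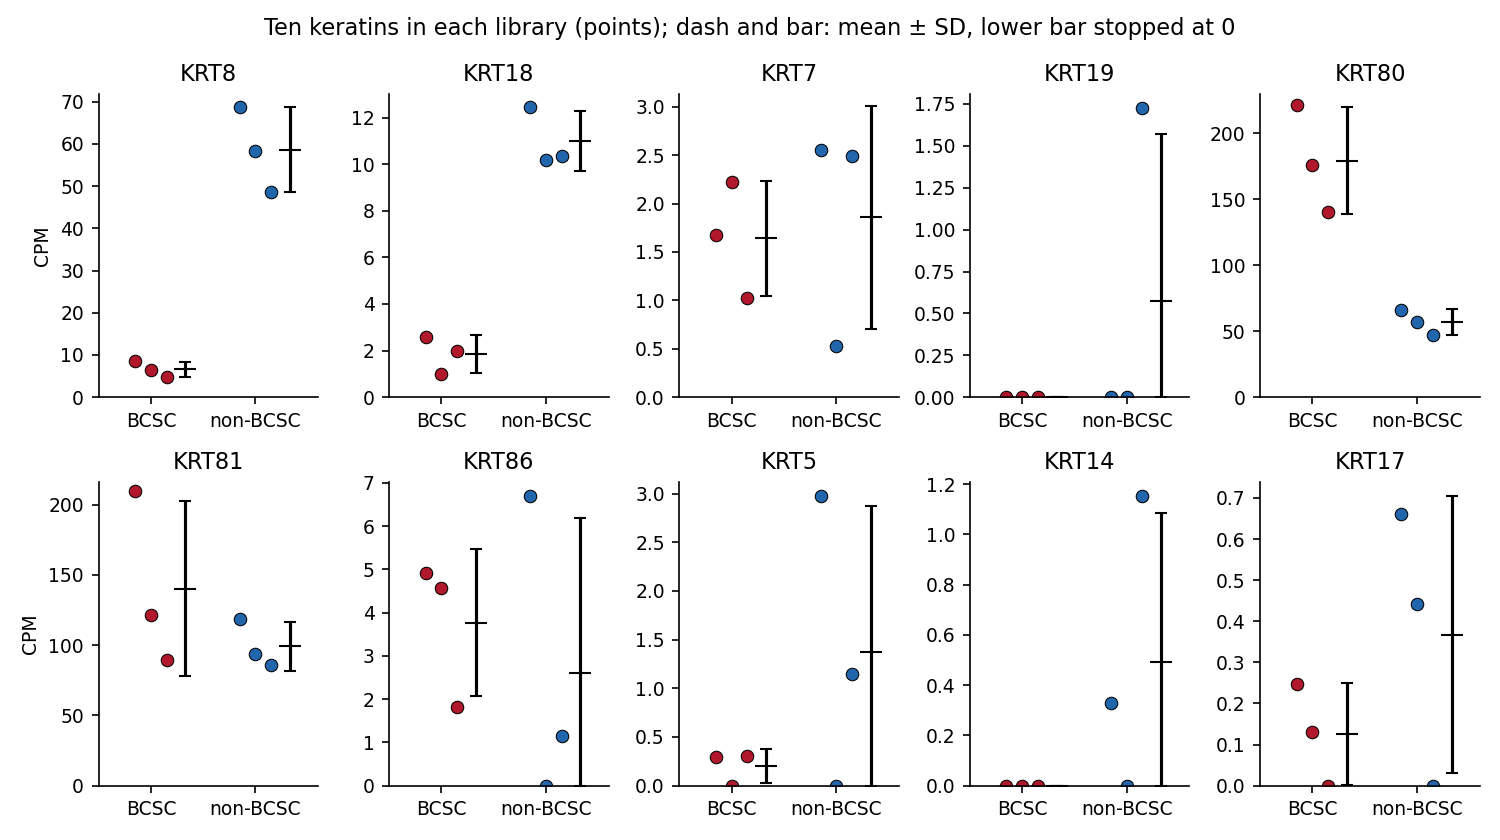
CPM of each of the 10 keratins (vertical axis, a separate scale from 0 in each panel) in the 3 BCSC (red) and 3 non-BCSC (blue) libraries, each point a library, in replicate order from left to right; dash and bar are the mean ± SD. KRT8 and KRT18 lie lower in all 3 BCSC libraries than in any non-BCSC library, KRT80 lies higher, and the other panels overlap.

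The luminal pair was lower in every BCSC library. KRT8 (ENSG00000170421, chr12:53290971-53343738, minus strand) had 172, 99 and 80 counts in BCSC against 833, 661 and 508 in non-BCSC, which is 8.47, 6.46 and 4.84 CPM against 68.7, 58.4 and 48.7. The lowest non-BCSC library lay well above the highest BCSC library. The log2 fold change was −3.15 ± 0.26 (SE), or 8.86-fold lower in BCSC. In a bulk sample, fewer cells that make KRT8 and less KRT8 RNA per cell cannot be told apart.

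KRT18 (ENSG00000111057, chr12:53342655-53346690, plus strand), the type I partner, had 52, 15 and 33 counts in BCSC against 151, 115 and 108 in non-BCSC. Its levels were 2.56, 0.979 and 1.996 CPM against 12.5, 10.2 and 10.4, again without overlap. The log2 fold change was −2.56 ± 0.47. Per kb of transcript, KRT8 RNA stood 3.08 ± 1.65 times above KRT18 RNA in BCSC and 3.99 ± 0.411 times in non-BCSC, ranges that overlapped, so the pair was low together. The genes lie head to head on opposite strands with overlapping ends, and whether strand was used in counting is not stated.

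KRT7 and KRT19, the further luminal keratins, gave no such separation. KRT7 (ENSG00000135480) was at 1.67, 2.22 and 1.03 CPM in BCSC against 2.56, 0.530 and 2.49 in non-BCSC. The lowest and the highest value were both non-BCSC libraries, and the log2 fold change of −0.18 ± 0.88 was smaller than its error. KRT7 counts came mostly from non-coding or partial models, with 49 counts in KRT7-208 and 43 in KRT7-206 against 11 in the full coding transcript KRT7-201, over all 6 libraries. KRT7-AS, antisense to it, had 26 counts in BCSC replicate 3 and 0 elsewhere. KRT19, an acidic keratin that carries no tail domain, had 18 counts in non-BCSC replicate 3 and 0 in the other 5 libraries.

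The KRT8 sum joined transcripts that differed in how far they moved. Of the 18 annotated transcripts of KRT8, 11 had counts, and KRT8-217 (chr12:53340398-53343658) was 1 of 2 counted in all 6 libraries. It had 96, 54 and 60 counts in BCSC against 71, 69 and 63 in non-BCSC. At 3.96 ± 0.668 against 5.999 ± 0.124 CPM its groups did not overlap, and the means differed 1.51-fold beside 8.86-fold for the gene. It made up 61.8% ± 11.5 of KRT8 counts in BCSC but 10.5% ± 1.94 in non-BCSC. KRT8-217 lies at the upstream end of the gene, shares 0 exonic bases with KRT8-218, which spans the main body, and overlaps KRT18 exons on the other strand by 132 bases.

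Without KRT8-217, a choice made after its values were seen, KRT8 had 76, 45 and 20 counts in BCSC against 762, 592 and 445 in non-BCSC. That is 2.63 ± 1.29 against 52.6 ± 10.1 CPM, 20.01-fold lower in BCSC, and a log2 fold change of −4.31 in place of −3.15. In BCSC, more than 1 in 2 counts of the gene thus came from the upstream model.

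The rest of KRT8 moved between transcript models from library to library. KRT8-216 had 670, 228 and 13 counts in the non-BCSC libraries, KRT8-208 had 51, 338 and 7, and KRT8-218 had 0, 0 and 416. Each non-BCSC library was led by another model, while the gene sums stayed within 508 to 833 counts. KRT18 behaved alike: KRT18-202 had 105 counts in non-BCSC replicate 1 and 0 in all others, and KRT18-201 had 0, 95 and 48 in non-BCSC and 0 in BCSC. KRT18-207 ran the other way from the gene, with 30, 12 and 30 counts in BCSC against 3, 0 and 0 in non-BCSC, or 72.0% of KRT18 counts in BCSC and 0.802% in non-BCSC. Over the 10 keratins, 31 of 74 transcripts were at 0 everywhere and 5 had counts in all 6 libraries, so the gene sum is the level at which these data compare.

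**Figure D2:**
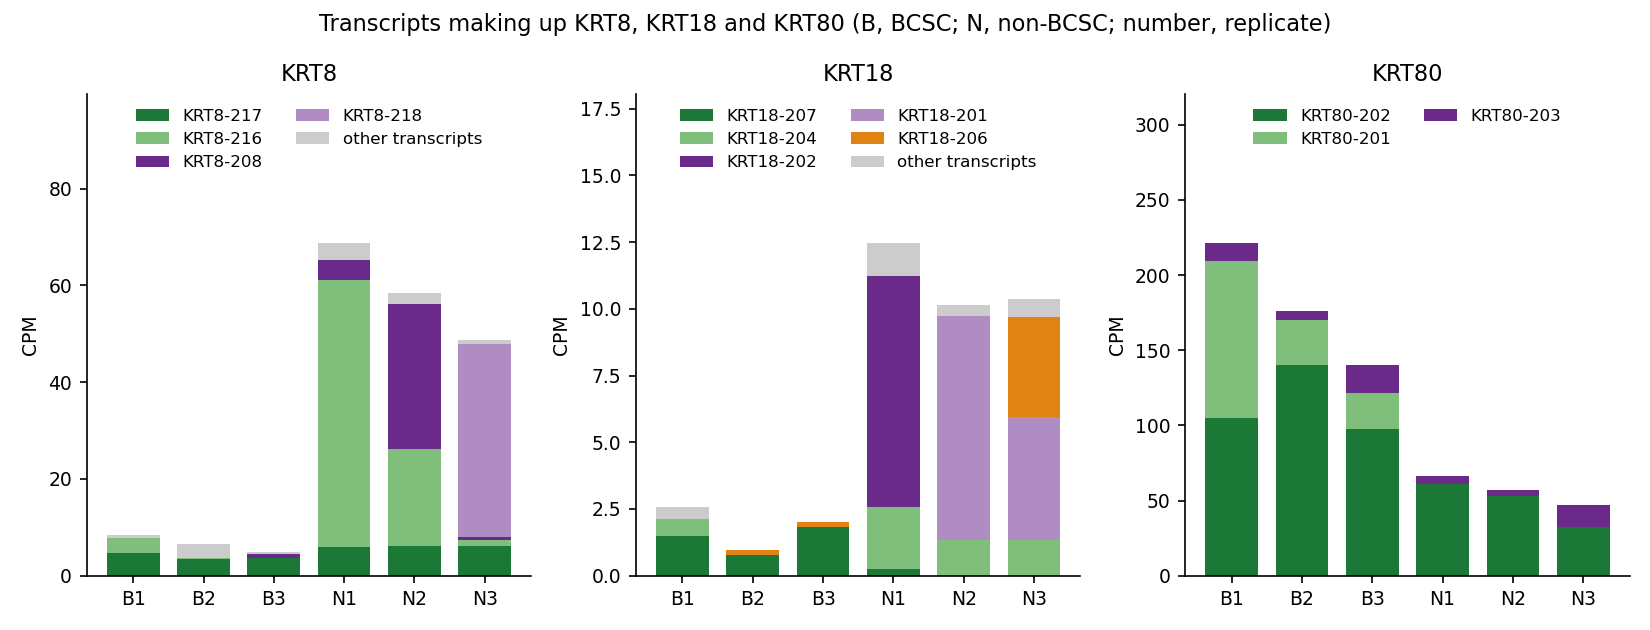
CPM (vertical axis, from 0) of the main transcript models of KRT8, KRT18 and KRT80, stacked to the gene's level, in each library (B, BCSC; N, non-BCSC; the number is the replicate). KRT8-217 lies between 3.52 and 6.10 CPM in all 6 libraries, lower in BCSC, the model that carries the remaining KRT8 and KRT18 counts changes between non-BCSC libraries, and KRT80-201 appears in the BCSC libraries alone.

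KRT80 (ENSG00000167767, chr12:52562780-52585798, minus strand) ran opposite to KRT8. It had 4492, 2699 and 2321 counts in BCSC against 804, 643 and 489 in non-BCSC. The levels were 221, 176 and 140 CPM against 66.4, 56.8 and 46.9, so that the lowest BCSC library stood above every non-BCSC library. The log2 fold change was 1.66 ± 0.19, or 3.16-fold higher in BCSC. After correction for GC content and transcript length the log2 fold change was 0.28, below the fold of 2 used for a call.

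The isoform printed above as KRT80-201 had 2117, 450 and 389 counts in BCSC against 0, 0 and 0 in non-BCSC, or 47.1%, 16.7% and 16.8% of KRT80 in the BCSC libraries. KRT80-202 had 2130, 2154 and 1616 counts in BCSC against 737, 603 and 340 in non-BCSC. The isoforms share 3859 exonic bases, and only the 35 bases shown and 14 at the 5′ end of KRT80-202 set them apart, so this split rests on how reads were assigned to transcripts. KRT80-203, a retained intron model, had 245, 95 and 316 counts against 67, 40 and 149.

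KRT81 (ENSG00000205426, chr12:52679697-52685318, minus strand) was the most abundant of the 10 per kb in both groups. It had 4253, 1865 and 1475 counts in BCSC against 1439, 1058 and 892 in non-BCSC, all in its only transcript. The levels of 210, 122 and 89.2 CPM in BCSC against 119, 93.5 and 85.5 in non-BCSC overlapped. The log2 fold change was 0.50 ± 0.27. Without BCSC replicate 1, the highest library, it was 0.08, and after the correction for GC content and length it was −1.24.

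KRT86 (ENSG00000170442, chr12:52643084-52702947, plus strand), whose span encloses KRT81 on the other strand, was far lower at 4.93, 4.57 and 1.81 CPM in BCSC against 6.68, 0 and 1.15 in non-BCSC. The log2 fold change of 0.52 ± 1.19 was smaller than its error, and with 1 library left out it ran from −0.02 without non-BCSC replicate 2 to 2.76 without non-BCSC replicate 1. The 2 genes share 0 exonic bases, but their transcripts are 96.6% identical over 1325 bases with an identical run of 605. KRT86 counts came to 2.71% ± 0.915 of KRT81 counts in BCSC and 2.32% ± 2.94 in non-BCSC, and how the authors treated reads that match both is not given. KRT83, another hair keratin 94.1% identical to KRT81 over 1420 bases, had 38, 26 and 38 counts in BCSC against 0, 8 and 14 in non-BCSC.

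The basal keratins stood near the limit of detection. KRT5 (ENSG00000186081) had 6, 0 and 5 counts in BCSC against 36, 0 and 12 in non-BCSC, and 48 of these came from KRT5-201, in non-BCSC libraries alone. KRT14 (ENSG00000186847) had 0, 0 and 0 against 4, 0 and 12, all in KRT14-201. KRT17 (ENSG00000128422) had 5, 2 and 0 against 8, 5 and 0. Per kb, KRT5 in non-BCSC came to 2.19, 0 and 0.397 times the olfactory receptor background, and KRT14 to 0.293, 0 and 0.480 times. At this depth no difference in the basal keratins was detectable, and KRT14 is moreover 89.5% identical to KRT17 over 996 bases and 89.2% identical to KRT16 over 1356.

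Per kb of transcript, where genes can be compared, the order in BCSC was KRT81 (72.6 ± 32.3 CPM per kb), KRT80 (46.7 ± 10.6), KRT8 (3.54 ± 0.979), KRT7 (2.26 ± 0.819), KRT86 (1.69 ± 0.761) and KRT18 (1.32 ± 0.575). KRT81 and KRT80 overlapped there, and so did each neighbouring pair from KRT8 down to KRT18. In non-BCSC the order was KRT81 (51.5 ± 8.99), KRT8 (31.5 ± 5.38), KRT80 (14.8 ± 2.53), KRT18 (7.89 ± 0.915), KRT7 (2.56 ± 1.59) and KRT86 (1.17 ± 1.599). The first 5 were separate from one another, and KRT7 and KRT86 overlapped. The 4 rarer keratins ranked below these 6 in both groups. KRT8 thus ranked above KRT80 in non-BCSC and below it in BCSC. The place of KRT7 rests on short models, with a count-weighted length of 0.727 kb, while its full coding transcript KRT7-201 has 1625 bases. By mean CPM, KRT7 lay below both KRT86 and KRT18 in each group.

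The ratio of KRT80 to KRT8 per kb was 12.7, 13.2 and 14.1 in BCSC against 0.468, 0.471 and 0.466 in non-BCSC. It varied little within a group while both genes varied by library, and the means of 13.3 and 0.468 differed 28.4-fold. This ratio joins 2 genes picked for their change, so its size describes that choice.

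All 54 keratin genes together came to 351 ± 107 CPM in BCSC against 264 ± 35.9 in non-BCSC, and the totals overlapped. The make-up differed more than the total. KRT80 took 51.8% ± 3.87 of all keratin counts in BCSC and 21.4% ± 1.72 in non-BCSC, and KRT81 took 38.8% ± 5.34 and 37.4% ± 1.63. KRT8 took 1.89% ± 0.0735 and 22.1% ± 1.67, and KRT18 took 0.540% ± 0.240 and 4.17% ± 0.131. KRT8 and KRT18 together thus fell from 26.3% in non-BCSC to 2.43% in BCSC. Type II RNA exceeded type I RNA in every library, by 22.7, 15.3 and 10.5 times per kb in BCSC and by 6.22, 5.42 and 3.82 times in non-BCSC.

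**Figure D3:**
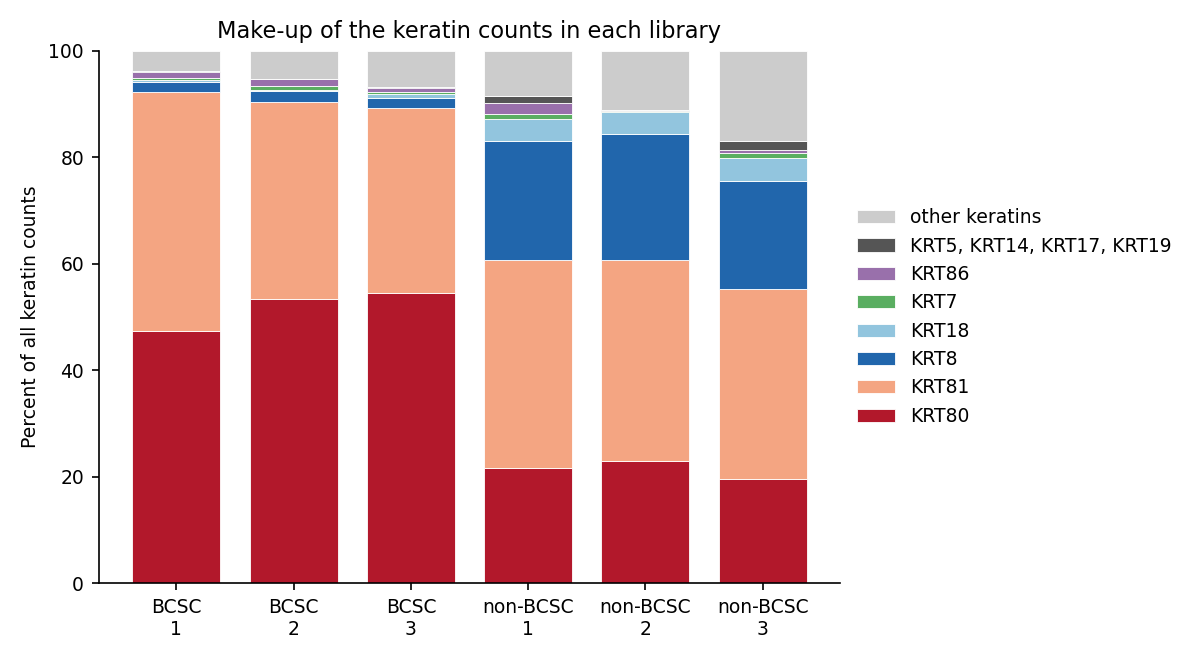
Percent of all keratin counts (vertical axis, 0 to 100) taken by each keratin in each of the 6 libraries, with the 44 keratins outside the chosen 10 in light grey. KRT80 and KRT81 fill 90.6% of the bar in BCSC on average and 58.9% in non-BCSC, and the KRT8 and KRT18 blocks are wide in non-BCSC alone.

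KRT8 and KRT18 have many processed pseudogenes, which can take or lend reads. The annotation gave 131 pseudogenes named after KRT8 (51), KRT18 (67), KRT17 (8) and KRT19 (5), of which 109 had counts and 6 were tested. By edgeR 0 of these 6 were called, beside 8.85% higher and 11.3% lower over all genes tested, with 0 at an unadjusted p under 0.05. The log2 fold change was above 0 for KRT18P31 (1.22), KRT8P12 (0.72), KRT8P33 (1.77), KRT18P5 (1.51) and KRT18P15 (2.25), and was −0.71 for KRT8P39. DESeq2, run without a filter on low counts, called KRT8P38 and KRT8P43 lower, both at 0 in BCSC. KRT8 pseudogenes summed to 7.78 ± 1.12 CPM in BCSC against 18.5 ± 6.57 in non-BCSC, and KRT18 pseudogenes to 8.18 ± 0.260 and 17.8 ± 8.30. In all 6 libraries the KRT18 pseudogenes together held more counts than KRT18. The median identity of a counted pseudogene transcript to its parent was 89.7% for KRT8 and 90.2% for KRT18. With pseudogene counts added, KRT8 was 14.4 ± 1.99 against 77.1 ± 5.07 CPM and KRT18 10.02 ± 1.01 against 28.8 ± 8.31. The log2 fold changes then fell to −2.42 for KRT8 and −1.52 for KRT18 and kept their direction.

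The 10 keratins are GC-rich, with 56.2% to 62.3% GC in their transcripts beside a median of 44.8% for all genes tested. The 2246 tested genes in that GC range had a median log2 fold change of 1.05, against −0.21 for the 17373 with less GC. KRT80, at 1.66, thus stood above genes of like GC content by less than its fold over non-BCSC, KRT81, at 0.50, stood below them, and KRT8 and KRT18 lay far below them. After correction for GC content and length, KRT8 and KRT18 were lower still in BCSC, at −4.42 and −3.64 log2, while KRT80 shrank to 0.28 and KRT81 turned to −1.24. KRT7 moved from −0.18 to −1.57, and KRT86 turned from 0.52 to −0.95. With the olfactory receptor background removed the log2 fold changes were −3.39 for KRT8, −2.73 for KRT18, 1.51 for KRT80 and 0.28 for KRT81. The lower KRT8 and KRT18 in BCSC kept their direction under each of the alternatives shown, and the higher KRT80 did too but was small under the GC correction.

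**Figure D4:**
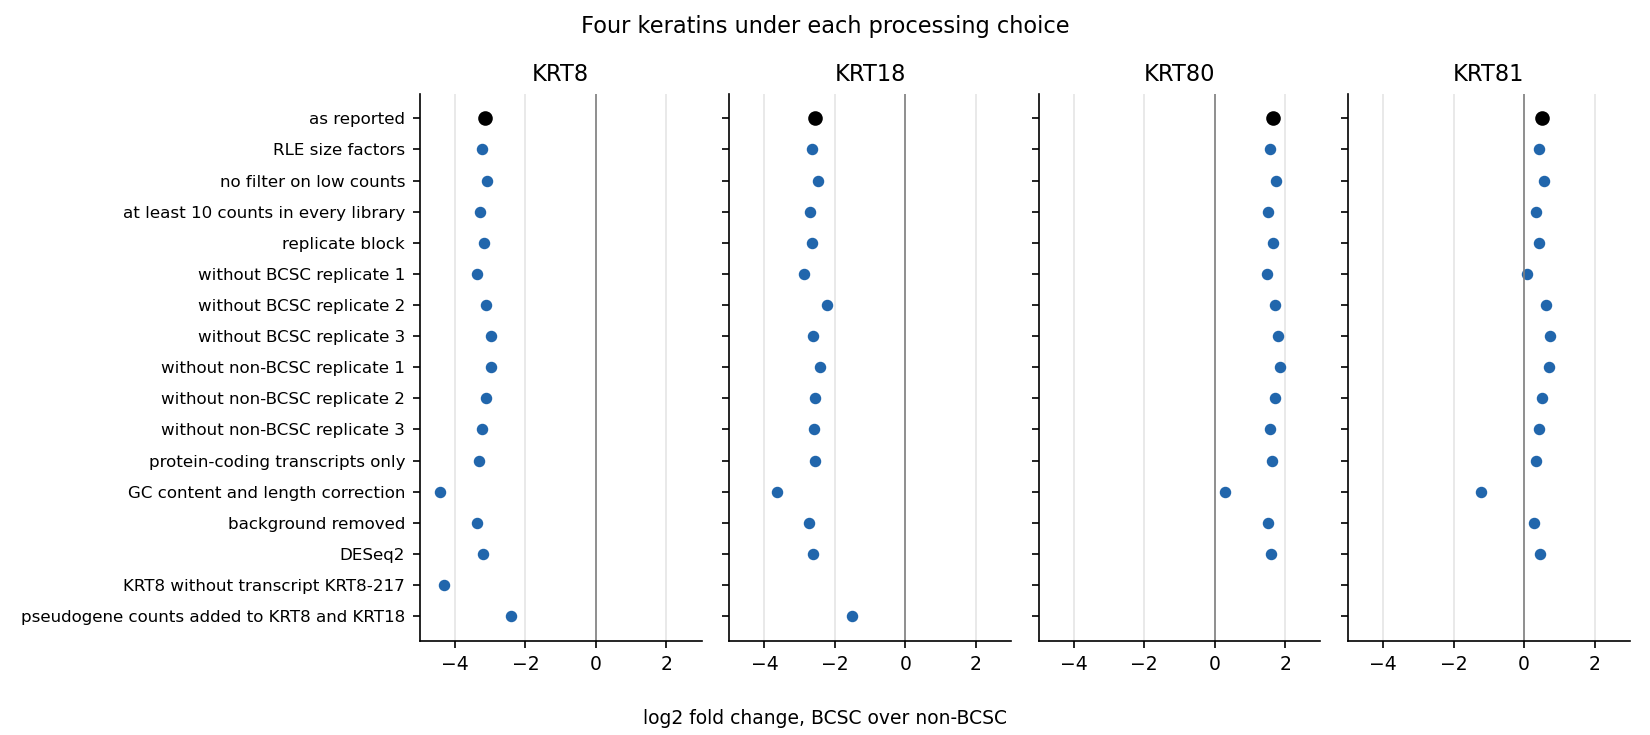
Log2 fold change of BCSC over non-BCSC (horizontal axis) for KRT8, KRT18, KRT80 and KRT81 as reported (black) and under each other processing choice (blue; a choice with no point does not concern that gene). KRT8 and KRT18 stay left of 0, KRT80 stays right of 0 with 0.28 as its lowest value, and KRT81 crosses 0 under the GC content and length correction.

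The genes most alike in pattern were sought among 12575 genes by the root mean square difference of centred log2 CPM over the 6 libraries. Among those nearest to KRT81 were PFKL, a phosphofructokinase of glycolysis (0.106), and ECI1, a mitochondrial enzyme of fatty acid oxidation (0.110). Like KRT81, both were highest in BCSC replicate 1. Nearest to KRT8 were AKR1C2, an aldo-keto reductase that acts on steroids (0.233), PADI3, a peptidylarginine deiminase of the hair follicle (0.237), and the lncRNA ENSG00000236451 (0.240). KRT18 ranked 28 in this order, at 0.499. Both KRT8 and KRT18 were chosen by their levels in these same groups, so nothing is read from this rank.

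The other 44 keratins had at most 192 counts in a library, with 7 at 0 in all libraries and 7 tested. By edgeR 0 were called higher and 1 lower, beside 8.85% and 11.3% of all genes tested. That 1 was KRT40, a type I hair keratin, which passed the filter on low counts through non-BCSC alone. It had 0 counts in BCSC against 10, 10 and 23 in non-BCSC (adjusted p = 0.0167), at least 7.46-fold lower in BCSC against a floor of 3 counts per library. At an unadjusted p under 0.05 the counts were likewise 0 and 1, and DESeq2 gave 0 and 3. The KRT40 call was lost without BCSC replicate 1, BCSC replicate 2 or non-BCSC replicate 3, and its non-BCSC level was 0.493 to 0.751 times the olfactory receptor background. KRT10, the type I keratin of the suprabasal epidermis, had the highest counts among the 7 at 9.84 ± 1.66 against 12.4 ± 1.35 CPM (log2 fold change −0.33 ± 0.29, adjusted p = 0.411). KRT15, a basal type I keratin, was at 2.34 ± 1.40 against 0.671 ± 1.16 CPM (adjusted p = 0.395), and KRT83 at 1.96 ± 0.310 against 0.683 ± 0.672 (adjusted p = 0.363). The median log2 fold change of the 7 was −0.96, beside −0.05 for all genes tested. That median is the value of KRT16 (adjusted p = 0.427 by edgeR), which lay at 1.19, 1.10 and 0.689 times the olfactory receptor background in non-BCSC. KRT23, with 0, 8 and 0 counts in BCSC against 10, 9 and 14, passed the filter through non-BCSC alone, as KRT40 did. Nothing is read from this median.

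Of 28 genes for other intermediate filaments and for proteins listed as keratin-binding, 17 were tested. By edgeR 4 were called higher and 0 lower in BCSC, beside 8.85% and 11.3% of all genes tested, and DESeq2 also gave 4 and 0. A further 3, DSP, NES and LMNB1, were lower at an adjusted p under 0.05 (0.00294, 0.0347 and 0.0173) but missed the fold. The 4 called higher were LMNB2, a B-type nuclear lamin (1.56 ± 0.27, adjusted p = 0.00374), PLEC, the cytolinker plectin (1.61 ± 0.32, adjusted p = 0.00677), LMNA, which encodes lamins A and C (1.17 ± 0.27, adjusted p = 0.0122), and SFN, the 14-3-3 protein stratifin (1.41 ± 0.35, adjusted p = 0.0155), all as log2 fold changes with SE from edgeR. For each, the 3 BCSC values lay above the 3 non-BCSC values, at 122 to 294 against 43.9 to 79.8 CPM for PLEC. Under the correction for GC content and length all 4 changed sign, to −0.30, −0.86, −0.57 and −0.21 in the same order. Their adjusted p values by edgeR were then 0.117, 0.00204, 0.00427 and 0.612. PLEC and LMNA were thus lower there at an adjusted p under 0.05, short of the fold for a call. Without BCSC replicate 1 the calls of LMNA and SFN were lost. Without BCSC replicate 2, SFN was lost, and without non-BCSC replicate 2 or 3, LMNA was lost. LMNA was also lost with protein-coding transcripts only and, at 0.96 log2, with background removed.

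The 3 most abundant of these genes did not reach the fold for a call. VIM, the filament of mesenchymal cells, was at 3418 ± 412 against 2793 ± 506 CPM (log2 0.29 ± 0.14, adjusted p = 0.139). DST, the linker dystonin, was at 2230 ± 16.7 against 1572 ± 30.1 (0.50 ± 0.08, adjusted p = 0.00240), and LMNB1 at 322 ± 40.9 against 442 ± 33.5 (−0.46 ± 0.12, adjusted p = 0.0173). The median log2 fold change of the 17 was 0.24, beside −0.05 for all genes tested.

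**Figure D5:**
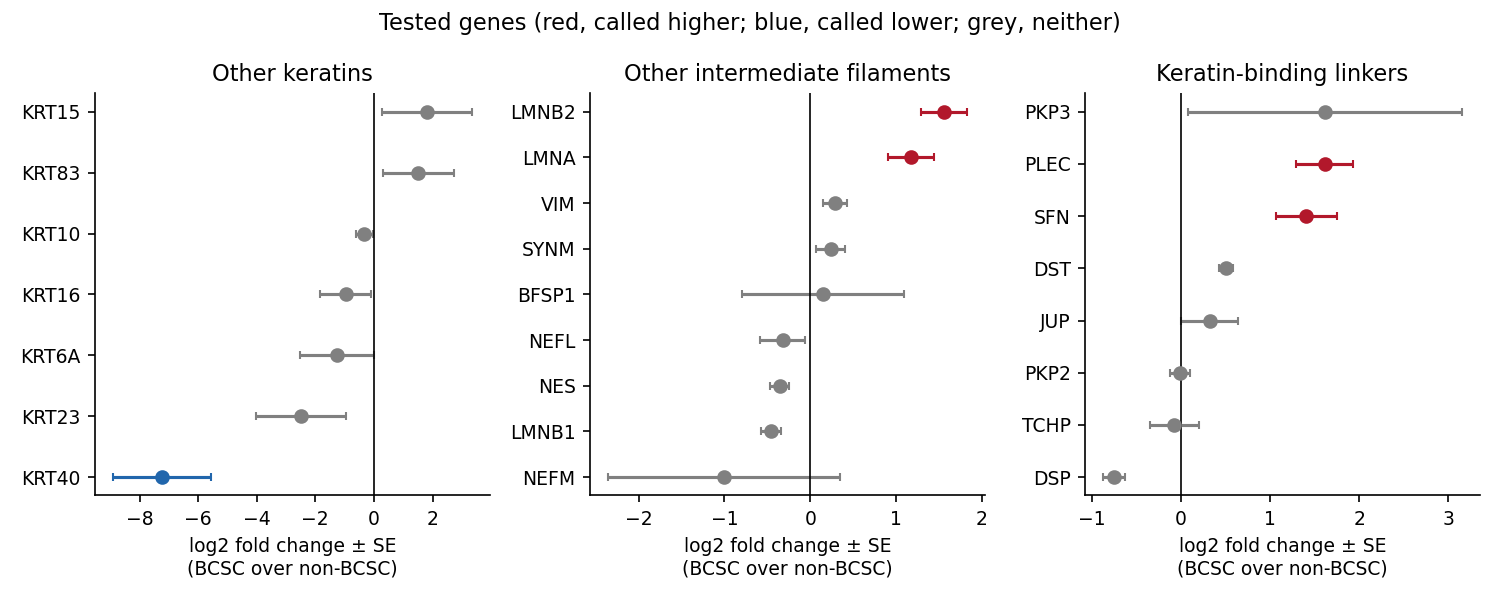
Log2 fold change ± SE (horizontal axis, a separate scale in each panel) of the tested genes among other keratins, other intermediate filaments and keratin-binding linkers; red, called higher in BCSC, blue, called lower, grey, neither. LMNB2, LMNA, PLEC and SFN are red and turn negative under the GC content and length correction, and KRT40, at 0 in BCSC, is the only blue point, its fitted value depending on the fit's prior count.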

How the data were processed

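LncRNA sequencing libraries of PTX-resistant MDA-MB-231 (3 BCSC, 3 non-BCSC) were analysed. The values the authors deposited are whole numbers per transcript, not normalized, and were treated as estimated counts because transcripts of a gene drop to 0 in one library and lead in the next. HISAT2, featureCounts and DESeq2 are named in the submitters' processing notes with build hg38, while the study's RNA-Seq methods name hg19. The annotation release and the assignment of reads to transcripts are not given in the sources used here. Library preparation kept strand, but its use in counting is not stated.

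Of 252618 transcripts, 249618 (98.8%) were matched by identifier to GENCODE 44 on GRCh37, whose coordinates are printed, and counts were summed over 61016 genes. The 3000 unmatched transcripts held 0.229% to 0.341% of counts. Total counts per library are in the report. Genes were tested with edgeR 4.0.16 (R 4.3.3: TMM, expression filter, robust quasi-likelihood fit, group as the only term), and CPM used TMM library sizes. The common biological coefficient of variation was 0.453. Levels per kb used each gene's count-weighted transcript length. Sequences were compared with BLAST+ 2.17.0.

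The keratins and lists were chosen with earlier results of these data known. Named genes were the 10 keratins, and from each other list up to 4 called in each direction and the 3 with the highest CPM. Patterns alike were sought for the keratin highest per kb and that with the largest fold, among genes averaging 50 counts or more. Alternatives were RLE size factors, DESeq2 1.42.0, other filters, a replicate block, each replicate left out, protein-coding transcripts only, a loess correction for GC content and length (span 0.3), background removal and no fold minimum. KRT8 without KRT8-217 and pseudogene sums were added after the data were seen. The test was tried on simulated counts. Replicates within a group differed beyond counting error (chi-square per degree of freedom 13.7 to 35.5). A few items that these rules would name are not reported here.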

Additional observations from a re-analysis of the deposited data

How the results depend on the processing

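Over all genes, calls higher and lower numbered 1810 and 2307. Calls higher moved to 909 with protein-coding transcripts only and 3125 with no fold minimum. Calls lower moved to 4771 with DESeq2, 1177 with at least 10 counts in every library, 735 with protein-coding transcripts only and 1081 with background removed. Leaving out 1 library gave 959 (without BCSC replicate 1) to 2230 higher, and 1103 (without non-BCSC replicate 3) to 3004 lower, with 1198 without BCSC replicate 1 and 1143 without BCSC replicate 2. The split between higher and lower was 1533 and 2515 with RLE size factors, 2181 and 3009 with no filter, 1508 and 2441 with the GC content and length correction, and 1902 higher with DESeq2. The median log2 fold change of all genes moved by 0.139 with background removed, by −0.107 with the GC content and length correction, by up to −0.215 without BCSC replicate 3, and by −0.969 and −1.15 in the unfiltered edgeR and DESeq2 fits.

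Among the other keratins, calls lower were 2 with no filter, 3 with DESeq2, and 0 with at least 10 counts in every library, with protein-coding transcripts only and with background removed, where KRT83 was the 1 call higher. Leaving out 1 library gave 0 to 1 higher (KRT15 without non-BCSC replicate 3) and 0 to 4 lower (4 without non-BCSC replicate 1). Among filament and linker genes, calls higher were 0 with the GC content and length correction and 2 to 4 with 1 library left out. Calls lower were 3 with that correction (DSP, JUP and NES), 3 with no fold minimum, 1 (TCHP) with protein-coding transcripts only, and 0 to 1 (BFSP2 without non-BCSC replicate 1) with 1 library left out. With 1 library left out, an arm of 2 remained. The causes were not tested.

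For pairing, deviations of log2 CPM from the group mean of each gene were correlated between BCSC and non-BCSC libraries. These deviations correlated at 0.222, 0.0302 and 0.248 for same-numbered libraries, and at −0.23 to 0.0432 for differently numbered ones. Deviations sum to 0 over the 3 replicates of a group, so these values are not independent of one another. The sample titles state no pairing, and whether the numbers pair the libraries is not settled by these values. With a replicate block, 1994 genes were higher and 2321 lower, 0 of the other keratins were higher and 0 lower (KRT40 missed the threshold), and filament and linker genes stayed at 4 and 0. KRT86 moved from 0.52 to 1.44 log2 there. KRT8, KRT18 and KRT80 kept their direction under all 16, 15 and 14 alternatives. Depth limits the basal keratins and KRT19, which the filter removed.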

Other observations

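Markers of luminal and basal cells outside the keratins were also measured. Of 7 luminal markers 5 were tested and 0 were called by edgeR, beside 8.85% higher and 11.3% lower over all genes tested. At an unadjusted p under 0.05, 1 was lower, while DESeq2 called ESR1 lower and MUC1 higher. MUC1, not tested by edgeR, had 48, 20 and 0 counts in BCSC against 0, 0 and 0 in non-BCSC. The sums of the groups were 31.2 to 32.5 CPM in BCSC and 33.1 to 59.7 in non-BCSC. They did not overlap, as in 52.1% of all genes tested, but lay close. Among the tested luminal markers only GATA3 leaned higher in BCSC, at 14.5, 12.2 and 16.8 CPM against 9.82, 8.48 and 10.9 (log2 fold change 0.57 ± 0.28, adjusted p = 0.148). ELF3 (−2.25 ± 1.22, adjusted p = 0.186) and ERBB3 (−0.53 ± 0.39, adjusted p = 0.323) leaned lower. CDH1, the epithelial cadherin, was at 3.60, 5.09 and 2.60 CPM in BCSC and 6.02, 6.89 and 9.30 in non-BCSC (log2 fold change −0.98 ± 0.45, adjusted p = 0.129), and EPCAM had at most 19 counts in a library. ESR1, the oestrogen receptor, was at 4.19, 3.65 and 5.56 CPM against 7.67, 6.98 and 16.0 (−1.19 ± 0.44, adjusted p = 0.0678). Outside these 7, 1 of 3 receptor genes was called. This was PGR, the progesterone receptor, lower in BCSC at 0.542, 0.326 and 1.39 CPM against 7.26, 15.5 and 19.1 (−4.19 ± 0.64, adjusted p = 0.00218). PGR had 88, 175 and 199 counts in non-BCSC, where the olfactory receptor background also rose, at 8.33, 10.1 and 15.3 counts per kb. The part of this background in PGR and ESR1 was not tested. Of 5 basal markers 4 were tested, and by edgeR 1 was called higher and 1 lower, beside 8.85% and 11.3% of all genes tested. At an unadjusted p under 0.05, 2 were higher and 1 lower. The 5 summed to 53.0 to 57.6 CPM in BCSC and 48.4 to 50.3 in non-BCSC. OXTR was at 9.36, 8.15 and 8.23 CPM against 6.35, 3.27 and 3.55 (0.96 ± 0.42, adjusted p = 0.107). ACTA2 overlapped (0.78 ± 0.86, adjusted p = 0.515), and CNN1 had 11, 0 and 4 counts in BCSC against 0, 0 and 0. TP63, a transcription factor of basal epithelium, was lower in BCSC at 7.59, 9.85 and 11.4 CPM against 21.2, 28.2 and 30.3 (−1.47 ± 0.27, adjusted p = 0.00471). MYLK, the myosin light chain kinase of contractile cells, was higher at 32.3, 34.1 and 34.5 CPM against 18.1, 18.2 and 13.9 (1.01 ± 0.20, adjusted p = 0.00748), just past the fold for a call, and DESeq2 called TP63 lower and 0 basal markers higher.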
